A study of Mus musculus with 12 samples.

Results

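The genes described here encode lysosomal hydrolases, cathepsins, membrane proteins and proton pump subunits, measured in mouse bone marrow-derived macrophages on 12 Illumina bead arrays. A list of 41 genes was matched to the probes of the array by gene symbol. A probe had to be detected at p under 0.05 on at least 3 of the 12 arrays, and the probe with the highest mean signal stood for its gene. In all, 38 of the 41 genes passed, out of 9795 genes measured in the same way. Cd68 had 0 probes under that symbol. The single probe of Atp6v0d2, a proton pump subunit known from osteoclasts, was detected on 0 arrays. Tfeb, the transcription factor that switches on lysosomal genes, had 2 probes, detected on 2 arrays and on 1 array. The first Tfeb probe lay between 4.83 and 5.36 on the log2 scale over the 12 arrays, with a median of 5.05, and was detected on array 2 without LPS and array 8 with LPS. Its second probe lay between 4.58 and 5.40, with a median of 4.80, and was detected on PBS array 7 with LPS. No change in Tfeb could be read at that signal.

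The macrophages came from C57BL/6 mice aged 9 to 16 weeks. Bone marrow was grown for 8 to 9 days in 20% medium conditioned by L929 cells, a fibroblast line that secretes the macrophage growth factor M-CSF. There were 4 groups of 3 arrays, numbered by the RNA number in their labels. Cyclodextrin cells (arrays 22, 23 and 24) had 4 h of contact with 4% cyclodextrin, a ring of sugars that draws cholesterol out of membranes, were washed and then received LPS at 10 ng/ml for 6 h. HDL cells (arrays 16, 17 and 18) had 24 h with HDL, the lipoprotein that accepts cholesterol from cells, at 300 ug/ml, and then the same wash and LPS. PBS cells with LPS (arrays 7, 8 and 9) had buffer and then LPS, and PBS cells without LPS (arrays 1, 2 and 3) had buffer alone. LPS is a bacterial cell wall component that activates macrophages through Toll-like receptor signalling. The labels give PBS no contact time, and HDL and cyclodextrin differed in theirs, so compound and contact time cannot be told apart. No label says that the samples came from separate animals or cultures, so the p-values speak of sample-to-sample spread alone, and that spread may be technical.

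Lysosomes are acidic vesicles in which hydrolases break down proteins, glycans and lipids taken up from outside or delivered by autophagy. The vacuolar proton pump, or V-ATPase, acidifies the lumen, most soluble hydrolases are sorted there by a mannose 6-phosphate tag, and heavily glycosylated membrane proteins line the inner face of the membrane. In macrophages the same enzymes digest engulfed microbes and cell debris, and cysteine cathepsins also cut antigens and the invariant chain for presentation on MHC class II. Many lysosomal genes carry a CLEAR element in their promoter, a palindrome around the E-box CACGTG that is bound by TFEB and TFE3.

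Promoter sequence was available from RefSeq (GRCm38.p6) for 35 of the 41 genes, as 41 windows of 300 bases that run from 250 bases before to 50 bases after a start. The 8-base motif GTCACGTG was searched on both strands (its complement reads CACGTGAC), as were the palindrome TCACGTGA and the 6-base E-box CACGTG. The 3 motifs overlap, since both longer ones contain the E-box. GTCACGTG occurred in 11 of the 41 lysosomal promoters (26.8%), against 738 of all 32851 promoters (2.25%). The related genes listed below are further lysosomal, nutrient signalling, sorting and autophagy genes and protease inhibitors. Among their promoters 13 of 111 held GTCACGTG (11.7%). TCACGTGA occurred in 7 of the 41 lysosomal promoters (17.1%), against 0.974% of all promoters. The E-box occurred in 14 of the 41 (34.1%), against 7.15% of all promoters and 18.9% of those of the related genes. Windows of 60 bases are printed for 4 genes that were lower under LPS and for Cln3, which was higher, so that the shared core can be seen in genes that moved in opposite directions. Capitals mark the motif, read on the gene's own strand. Atp6v1a holds the palindrome TCACGTGA without GTCACGTG, and the others hold GTCACGTG or its complement. In Atp6v0d1 and Cln3 the capitals also take in TCACGTGA, which overlaps GTCACGTG.

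Naglu: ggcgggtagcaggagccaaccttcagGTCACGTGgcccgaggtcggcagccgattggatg
Sgsh: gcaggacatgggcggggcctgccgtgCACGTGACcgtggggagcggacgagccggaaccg
Atp6v0d1: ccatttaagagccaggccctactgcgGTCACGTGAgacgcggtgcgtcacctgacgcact
Atp6v1a: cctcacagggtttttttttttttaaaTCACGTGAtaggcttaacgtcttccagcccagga
Cln3: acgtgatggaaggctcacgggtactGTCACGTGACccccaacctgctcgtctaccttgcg

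The Naglu window is chr11:101069993-101070052 on the plus strand, with the motif centred at -71 relative to the start. On the minus strand lie Sgsh (chr11:119355506-119355565), with the motif centred at -25, and Atp6v0d1 (chr8:105566036-105566095), with the motif at -1. Atp6v1a (chr16:44139358-44139417) and Cln3 (chr7:126583325-126583384) are on the minus strand too, with the motif at -128 in Atp6v1a and at -118 in Cln3. Another promoter window of Cln3, at a different start (chr7:126585768-126586067), held none of the 3 motifs. A match describes these letters and shows no binding. Of the measured genes with a promoter window, GTCACGTG was present in 6 of the 16 that were lower under LPS, in 1 of the 5 that were higher and in 4 of the 12 that were not called. A gene with several windows counted if any of them held the motif.

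The cyclodextrin arrays had the fewest detected probes, 33.3 to 35.2%, below each of the other 9 arrays. Of all probes, 34.3 ± 0.963% (SD, n = 3) were detected in cyclodextrin cells, 36.0 ± 0.173% in HDL cells, 36.7 ± 0.265% in PBS cells with LPS and 37.2 ± 1.25% without LPS. With 3 arrays a group, precision is limited by their number. All 9 macrophage markers (Csf1r, Adgre1, Itgam, Cd14, Mertk, Fcgr1, Lyz2, Mrc1 and Spi1) were detected on every array. Their summed signal was 92092 to 94401 in cyclodextrin cells, 90640 to 98935 in HDL cells, 97272 to 98939 in PBS cells with LPS and 70133 to 77346 without LPS, so the marker sum moved with LPS. The macrophage markers did not move together under LPS. Fcgr1 (3.32), Mertk (1.24), Cd14 (1.16), Spi1 (1.07) and Adgre1 (0.39) were called higher and Mrc1 lower (-0.47). Csf1r (0.00), Lyz2 (0.05) and Itgam (-0.18) were not called. Of the fibroblast markers 1 of 6 passed the detection filter, of the T and NK cell markers 1 of 7, of the B cell markers 1 of 3, of the neutrophil markers 4 of 6, of the osteoclast markers 5 of 7, of the dendritic cell markers 2 of 6, of the mast cell markers 2 of 5 and of the erythroid markers 0 of 3. Several moved with LPS: the neutrophil marker S100a8 was higher by 0.65 ± 0.13, the osteoclast marker Nfatc1 was 2.64-fold lower, the mast cell marker Kit was at least 3.67-fold lower and the fibroblast marker Dcn at least 1.41-fold higher. Other osteoclast markers rose: Mmp9 was 2.11-fold higher, Acp5 at least 1.58-fold and Oscar at least 1.34-fold, and Dcstamp was not called. Clec9a of dendritic cells was at least 1.15-fold higher. S100a9, Camp, Ngp, Fcer1a, Siglech, Cd79b and Prf1 were not called. Summed signals under LPS and without it were 836 to 915 and 540 to 649 for neutrophil markers, and 60.5 to 72.0 and 172 to 198 for mast cell markers. Their part in the lysosomal changes was not tested. These are bulk samples, in which fewer cells of a type and less RNA per cell cannot be told apart. Of the 38 lysosomal genes 37 were detected on all 12 arrays, and Sgsh was detected on 8. All levels below are background-corrected, quantile-normalized log2 signals of 1 probe, comparable between arrays but not between genes. Fold changes are differences of group means on that scale with their standard error (SE), tested with limma, and a call means an adjusted p under 0.05 (Benjamini-Hochberg over the 9795 genes).

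**Figure D1:**
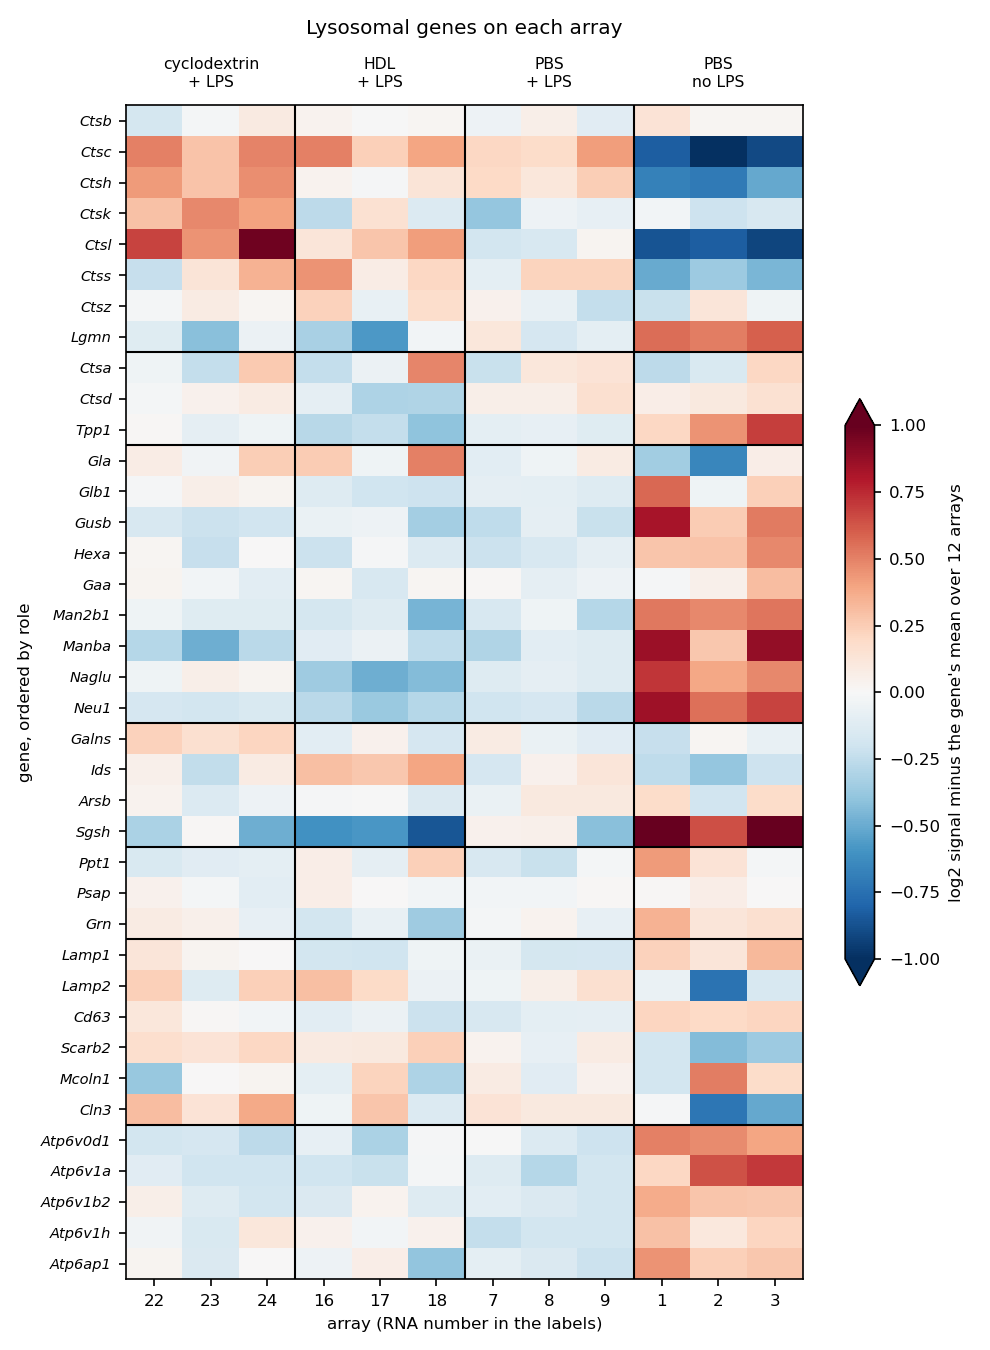
Log2 signal of the 38 measured lysosomal genes (rows, ordered by role and split by lines) on each of the 12 arrays (columns, with their RNA numbers), shown as the difference from the gene's mean over the 12 arrays; the colour scale ends at 1 log2 unit in either direction. The block of PBS arrays without LPS stands apart, red for glycosidases and pump subunits and blue for Ctsc, Ctsh and Ctsl on these quantile-normalized values (most glycosidases and pump subunits were not called under the median of detected probes), and Ctsl and Ctsk are red in the cyclodextrin columns.

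Among the 38 genes, LPS lowered 7 of 9 glycosidases and the 5 proton pump genes and raised 4 of 8 cysteine proteases, on quantile-normalized values. Of the 38 genes 24 were called (63.2%), close to the background of 60.6% of all genes. Higher calls numbered 6 (15.8%, background 22.2%) and lower calls 18 (47.4%, background 38.4%). The median change was -0.20, against -0.14 over all genes. LPS and no-LPS arrays did not overlap for 26 of the 38 (68.4%), against 65.2% of all genes.

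The split between higher and lower depended on how the arrays were put on a common scale. When each array was instead shifted by its median over the probes detected on all arrays, 16 lysosomal genes were called, 10 higher and 6 lower, with a median change of 0.03. The median of all genes was then -0.01, with 29.0% called higher and 31.1% lower. When the median over all probes was used, 26 were called, 4 higher (10.5%) and 22 lower (57.9%). Of all genes 15.4% were then called higher and 53.5% lower. The median change was -0.38 for the lysosomal genes and -0.42 for all genes. Under all 3 scalings 4 genes were called higher (Ctsc, Ctsh, Ctss and Cln3) and 6 lower (Neu1, Sgsh, Naglu, Manba, Atp6v1a and Tpp1). These are 10.5% and 15.8% of the 38, against 15.4% and 30.6% of all genes. All other directions under LPS given below hold on quantile-normalized values, and the value under the median of detected probes is printed where that scaling ended a call.

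**Figure D2:**
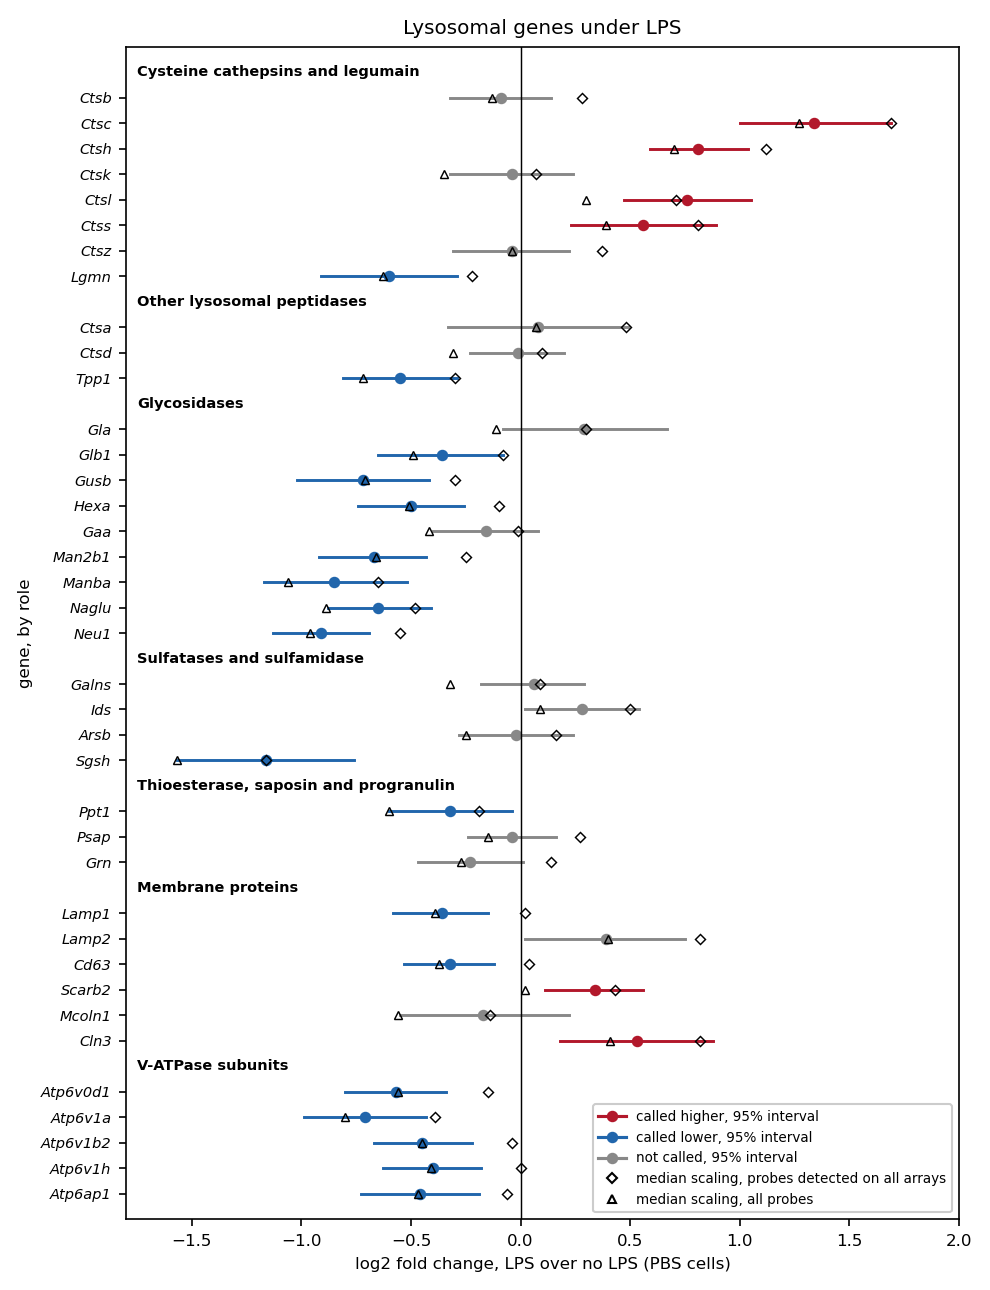
Log2 fold change of each lysosomal gene in PBS cells, LPS over no LPS (3 arrays each), grouped by role; filled points with lines are the quantile-normalized values with 95% intervals, red when called higher, blue when called lower and grey when not called. Open diamonds and triangles give the same change under the 2 median scalings: the diamonds of most glycosidases and pump subunits lie nearer to 0, while Ctsc, Ctsh, Neu1 and Sgsh keep their side of 0 under each.

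Among the cysteine proteases 4 of 8 rose under LPS and 1 fell. Ctsc encodes dipeptidyl peptidase I, which removes N-terminal dipeptides and activates granule serine proteases. Its signal was 13.06, 13.04 and 13.27 on the LPS arrays, against 12.03, 11.36 and 11.95 without LPS. Every LPS array lay above every array without LPS, and array 2 was the lowest. Ctsc rose by 1.34 ± 0.16 (SE, limma adjusted p = 3.87e-06), a 2.54-fold change, and its other 2 probes rose by 1.96 and 1.82.

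Cathepsin H, a protease with mainly aminopeptidase activity, is the product of Ctsh. It stood at 12.17, 12.09 and 12.22 with LPS, against 11.30, 11.27 and 11.46 without LPS, a rise of 0.81 ± 0.10 (limma adjusted p = 8.43e-06) with no overlap. Ctsl encodes cathepsin L, an endopeptidase. Its signal was 7.92, 7.94 and 8.13 with LPS, against 7.24, 7.28 and 7.18 without LPS, again without overlap. It rose by 0.76 ± 0.13 (limma adjusted p = 0.000189), and with the median of all probes the difference was 0.30 and not called (adjusted p = 0.0879).

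Ctss, the cathepsin that cuts the invariant chain in antigen-presenting cells, rose by 0.56 ± 0.15 (limma adjusted p = 0.00548). Legumain (Lgmn), an asparaginyl endopeptidase that processes other cathepsins, fell by 0.60 ± 0.14 (limma adjusted p = 0.00222), but the change was -0.22 and not called under the median of detected probes. Cathepsins B, K and Z were not called: their differences were -0.09 for Ctsb, -0.04 for Ctsk and -0.04 for Ctsz. Ctsb stood at 0.28, not called, under the median of detected probes. Ctsz stood at 0.37 and was called higher under the median of detected probes (adjusted p = 0.0185), and Ctsk at -0.35 and called lower under the median of all probes. Of the other peptidases, Tpp1, which removes tripeptides from the N-terminus of proteins, fell by 0.55 ± 0.12 (limma adjusted p = 0.00109). The aspartic protease gene Ctsd differed by -0.01 and Ctsa, the gene of the carboxypeptidase that protects neuraminidase 1, by 0.08, and neither was called, though Ctsa was called higher under the median of detected probes (0.48).

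Most of the glycosidases fell: 7 of 9 were called lower (77.8%, against 38.4% of all genes) and 0 higher, with a median of -0.65. Under the median of detected probes 3 of 9 stayed lower, Neu1, Naglu and Manba, and the median was -0.25. That is 33.3%, close to the 31.1% of all genes called lower under that scaling. Neu1, the lysosomal sialidase, read 11.46, 11.49 and 11.39 on the LPS arrays, against 12.51, 12.21 and 12.34 without LPS. The LPS arrays lay close together and far below the others. Neu1 fell by 0.91 ± 0.10 (limma adjusted p = 2.59e-06), and by 0.55 under the median of detected probes.

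Naglu removes N-acetylglucosamine from heparan sulfate. It gave 9.86, 9.90 and 9.86 with LPS, against 10.71, 10.38 and 10.47 without LPS, a fall of 0.65 ± 0.11 (limma adjusted p = 0.000116) with no overlap. The β-mannosidase gene Manba gave 9.88, 10.08 and 10.05 with LPS, against 11.04, 10.45 and 11.06 without LPS. It fell by 0.85 ± 0.15 (limma adjusted p = 0.000210), and the LPS arrays again lay below the rest, with array 2 nearest to them.

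Man2b1, the lysosomal α-mannosidase, had 13.27, 13.39 and 13.15 with LPS, against 13.96, 13.91 and 13.97 without LPS. Its fall of 0.67 ± 0.11 (limma adjusted p = 0.000122) was not called under the median of detected probes (-0.25). Gusb (β-glucuronidase) fell by 0.72, Hexa (the α subunit of β-hexosaminidase) by 0.50 and Glb1 (β-galactosidase) by 0.36. Under the median of detected probes these 3 stood at -0.30, -0.10 and -0.08, none called. Glb1 also lost its call when any of arrays 1, 3, 7, 8 or 9 was left out (limma adjusted p up to 0.119), and without array 1 its change was -0.21. Gla, the α-galactosidase A gene, and Gaa, the acid α-glucosidase gene, were not called, at 0.29 and -0.16, and Gaa was called lower under the median of all probes (-0.42).

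The sulfatase group held 1 call out of 4. Sgsh, the sulfamidase of heparan sulfate breakdown, read 5.81, 5.82 and 5.35 on the LPS arrays, against 7.06, 6.41 and 7.00 without LPS. It was detected on 3 of 3 arrays in both groups, and the groups did not overlap. Sgsh fell by 1.16 ± 0.19 (limma adjusted p = 8.91e-05), the largest fall among the 38, in a gene that lies near background: without background correction the change was -0.62 and in the authors' processed values -0.70, both still called. Ids (iduronate 2-sulfatase) differed by 0.28, Galns by 0.06 and Arsb by -0.02, none called. Under the median of detected probes Ids was called higher (0.50), and under the median of all probes Galns was called lower (-0.32).

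Ppt1, the palmitoyl-protein thioesterase, fell by 0.32 ± 0.13 (limma adjusted p = 0.0446), with overlapping arrays. The value was -0.19 and not called under the median of detected probes. The call was also lost without any of arrays 1, 2, 7, 8, 16, 22, 23 or 24 (limma adjusted p up to 0.188), and the change was -0.20 without array 1. Psap, the precursor of the saposins that help lipid hydrolases, differed by -0.04 and Grn, the progranulin gene, by -0.23, neither called, and stood at 0.27 and 0.14 under the median of detected probes, again not called. Psap read 15.06 to 15.23 over the 12 arrays, where the highest signal of any gene was 15.35 to 15.51 by array, so its probe lay near the top of the scale.

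Membrane proteins split: 2 of 6 rose (33.3%, against 22.2% of all genes) and 2 fell (33.3%, against 38.4%). Cln3, the membrane protein whose loss causes a childhood neuronal ceroid lipofuscinosis, gave 11.99, 11.95 and 11.95 with LPS, against 11.84, 11.13 and 11.34 without LPS, and rose by 0.53 ± 0.16 (limma adjusted p = 0.0122). Without array 2 the difference was 0.37 and not called (limma adjusted p = 0.0666). Scarb2, which carries β-glucocerebrosidase to the lysosome, rose by 0.34 ± 0.11, with 0.02 and no call under the median of all probes.

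The abundant membrane glycoprotein gene Lamp1 fell by 0.36 ± 0.10 and the tetraspanin gene Cd63 by 0.32 ± 0.10 (limma adjusted p = 0.00642 and 0.00929). Both directions reversed under the median of detected probes, to 0.02 and 0.04, neither called. Lamp2, which also serves chaperone-mediated autophagy, differed by 0.39 ± 0.17 and was not called (limma adjusted p = 0.0633), and the value was 0.18 without array 2. Under the median of detected probes Lamp2 was called higher (0.82). The calcium channel gene Mcoln1 stood at -0.17, not called, and was called lower under the median of all probes (-0.56).

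The 5 V-ATPase subunits or accessory proteins among the 38 genes were lower under LPS, with changes between -0.71 and -0.40 and a median of -0.46. Of all genes 38.4% were called lower. The same 5 were lower under the median of all probes, against 53.5% of all genes. Under the median of detected probes 1 of 5 was lower (20.0%, against 31.1% of all genes), Atp6v1a, and Atp6v1h stood at 0.00. Atp6v1a, the catalytic subunit of the cytosolic sector, read 11.30, 11.14 and 11.24 with LPS, against 11.63, 12.06 and 12.13 without LPS. It fell by 0.71 ± 0.13 (limma adjusted p = 0.000259), and by 0.39 under the median of detected probes, with no overlap between the groups. Atp6v0d1, a subunit of the membrane sector, read 12.52, 12.39 and 12.32 with LPS, against 12.92 to 13.03 on the 3 arrays without LPS, with no overlap. Its fall of 0.57 ± 0.11 (limma adjusted p = 0.000385) became -0.15 and was not called under the median of detected probes, while its 3 other probes gave -0.69, -0.61 and -0.66 on quantile-normalized values. Atp6ap1 fell by 0.46, Atp6v1b2 by 0.45 and Atp6v1h by 0.40. Atp6ap1 stood at -0.06 and Atp6v1b2 at -0.04, neither called, under the median of detected probes.

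Of the 38 genes 18 had several probes, 10 of them called under LPS. All probes of 6 of these were called the same way, and 0 had a probe called the other way. In Ctsa the probe used differed by 0.08, while 3 of its other 4 probes were called lower (-0.60, -0.70 and -0.42). The mean of all Ctsa probes gave -0.38. Of the 6 other Lamp2 probes 4 were called higher, at 0.43 to 1.80, and 2 were not (0.04 and 0.14).

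Related genes, namely further lysosomal, nutrient signalling, sorting and autophagy genes and protease inhibitors, were counted from lists of 124 genes, 101 of them measured. Under LPS 20 of the 101 rose (19.8%) and 49 fell (48.5%), against 22.2% and 38.4% of all genes, so 68.3% were called, against 60.6%. Under the median of detected probes 26 rose and 34 fell, against 29.0% and 31.1% of all genes. Under the median of all probes 13 rose and 62 fell, against 15.4% and 53.5% of all genes. The same shares of all genes apply to each list under LPS below. The genes named next kept their calls in all 25 alternative settings. Among further hydrolases, 3 of 18 rose and 11 fell. Pla2g15, a lysosomal phospholipase, fell by 1.78 ± 0.12, Dnase2a, which digests engulfed DNA, by 1.17 ± 0.10 and Fuca1, the α-fucosidase, by 1.02 ± 0.16. Acp5 went the other way and was at least 1.58-fold higher, with detection on 1 of 3 arrays without LPS. Further membrane proteins rose in 5 of 18 cases and fell in 7. The cystine exporter Ctns fell by 2.12 ± 0.16 and the 2-pore channel gene Tpcn1 by 1.76 ± 0.15. The mucolipin channel genes moved in both directions, with a rise of 1.44 ± 0.11 in Mcoln2 and a fall of 1.27 ± 0.18 in Mcoln3.

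Of 12 further V-ATPase genes 2 rose and 6 fell, but 4 rose and 2 fell under the median of detected probes. The membrane-sector a subunit genes moved apart: Atp6v0a1 fell by 1.33 ± 0.13, while Atp6v0a2 rose by 1.30 ± 0.11 and Tcirg1, the gene of the a3 form, by 0.51 ± 0.12. Another V-ATPase gene, Atp6v1c1, fell by 1.08 ± 0.10. Of 19 genes of TFEB-type factors and of nutrient signalling at the lysosome 0 rose and 10 fell (52.6%, against 38.4% of all genes). Under the median of detected probes 3 rose (15.8%, against 29.0% of all genes) and 6 fell (31.6%, close to the 31.1% of all genes). Under the median of all probes 0 rose and 15 fell (78.9%, against 53.5% of all genes). Flcn, which acts on the Rag GTPases and so on TFE3 and TFEB, fell by 1.94 ± 0.13 and Rragd, a Rag GTPase gene, by 1.16 ± 0.14. In the mannose 6-phosphate and sorting list 4 of 10 rose and 3 fell, against 1 and 5 under the median of all probes, with Gga2, an adaptor of hydrolase sorting, lower by 1.33 ± 0.10 on the log2 scale and the sorting receptor gene Sort1 by 1.08 ± 0.12. Among autophagy genes 5 of 19 rose and 10 fell, with Vps18 at -1.24, Atg101 at -1.12, Gabarapl1 at -1.10 and the autophagy receptor gene Sqstm1 at 0.94. The largest change in these lists was in a cathepsin inhibitor: Cst7, which encodes cystatin F, an inhibitor of cathepsin C, rose by 3.41 ± 0.11 (limma adjusted p = 3.04e-12). Ctsc and the gene of its inhibitor thus both rose.

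Under LPS, prior contact with cyclodextrin left most of the lysosomal genes within the error of PBS. Only 2 of the 38 were called (5.26%), both higher, against 5.07% of all genes (2.37% called higher and 2.71% lower). With the median of all probes 1 was called, higher, against 1.03% of all genes higher and 5.01% lower. Both encode cysteine cathepsins. Ctsl stood at 8.78, 8.55 and 9.07 on the cyclodextrin arrays, against 7.92, 7.94 and 8.13 in PBS cells with LPS. All 3 cyclodextrin arrays were above all 3 PBS arrays. Ctsl rose by 0.80 ± 0.13 (limma adjusted p = 0.00345, 95% interval 0.52 to 1.09), a 1.75-fold change, and kept its call in all 25 alternative settings, at 0.67 to 0.93.

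Ctsk encodes cathepsin K, which cuts collagen and is best known from osteoclasts. It read 10.04, 10.23 and 10.15 in cyclodextrin cells, against 9.36, 9.70 and 9.67 in PBS cells with LPS. The groups did not overlap, and PBS array 7 was the lowest. Ctsk rose by 0.56 ± 0.13 (limma adjusted p = 0.0240). Without PBS array 7 the difference was 0.45 and not called (limma adjusted p = 0.118), and the call was also lost without cyclodextrin array 23 (0.0691), without array 24 (0.0749) and under the median of all probes (0.0702). Of 7 osteoclast markers 5 passed the filter, and Calcr and Ocstamp did not. The summed osteoclast marker signal was 1106 to 1600 in cyclodextrin cells and 975 to 1368 in PBS cells with LPS. None of the 5 was called, and they went both ways. Mmp9 differed by 0.26, Dcstamp by 0.23, Nfatc1 by -0.03, Oscar by -0.21 and Acp5 by -0.41. The fibroblast marker Dcn was detected on 0 of 3 cyclodextrin arrays and 3 of 3 PBS arrays with LPS. The part of these markers in the Ctsk change was not tested.

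**Figure D3:**
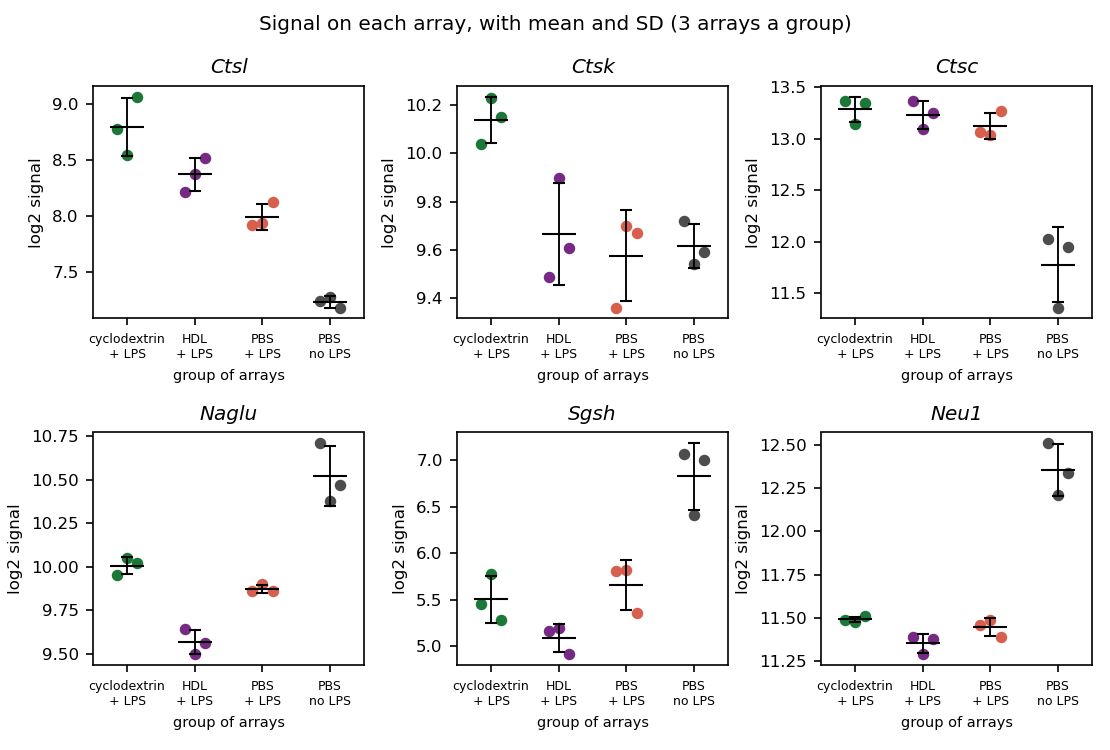
Log2 signal of 6 lysosomal genes on each array (points) with the mean and SD of each group of 3 arrays; cyclodextrin, HDL and PBS cells with LPS stand left of PBS cells without LPS, and each panel has its own vertical scale, which does not start at 0. Ctsl and Ctsk are highest in the cyclodextrin cells, Naglu and Sgsh are lowest in the HDL cells, and Ctsc and Neu1 differ mainly between arrays with and without LPS.

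The other 36 genes were not called in the cyclodextrin comparison. Their point estimates lay between -0.17 (Manba) and 0.24 (Galns). The 95% intervals of 37 of the 38 stayed within a 2-fold change in either direction, the exception being Ctsl. Sgsh was detected on 2 of 3 cyclodextrin arrays, so its interval is limited by the background. Cyclodextrin and PBS arrays did not overlap for 11 of the 38 (28.9%), against 26.5% of all genes. At an unadjusted p under 0.05 there were 3 genes (7.89%), against 19.2% of all genes.

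HDL changed none of the 38 genes past the threshold: 0 were called (limma), against 1.90% of all genes (0.796% higher and 1.10% lower), and 0 were called in each of the 25 alternative settings. At an unadjusted p under 0.05 there were 5 (13.2%), Ctsl, Ctsd, Naglu, Ids and Sgsh, against 17.9% of all genes. The point estimates lay between -0.57 and 0.38, and every 95% interval stayed within a 2-fold change, between -0.98 and 0.67. The lowest estimate and bound are those of Sgsh, whose probe was detected on 0 of 3 HDL arrays. Its difference can only be given as at least 1.28-fold, so its interval sets no upper limit to the size of the difference. HDL and PBS arrays did not overlap for 9 of the 38 (23.7%), against 26.0% of all genes.

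The genes nearest to a call were these. Ctsd, the cathepsin D gene, read 9.48, 9.26 and 9.27 in HDL cells, against 9.63, 9.63 and 9.73 in PBS cells with LPS, a difference of -0.33 ± 0.10 (limma adjusted p = 0.112). Sgsh read 5.16, 5.19 and 4.91 in HDL cells, against 5.81, 5.82 and 5.35 in PBS cells with LPS, a difference of -0.57 ± 0.19 (limma adjusted p = 0.133). Its probe was detected on 0 of 3 HDL arrays and 3 of 3 PBS arrays with LPS, and the difference was -0.25 without background correction. Ctsl read 8.22, 8.38 and 8.52 in HDL cells, a difference of 0.38 ± 0.13 from PBS (limma adjusted p = 0.157). Over the 4 groups, the Ctsl arrays did not overlap anywhere: cyclodextrin arrays were above HDL arrays, HDL arrays above PBS arrays with LPS, and those above arrays without LPS. The closest arrays were 8.55 (cyclodextrin) against 8.52 (HDL), and 8.22 (HDL) against 8.13 (PBS with LPS). Neither of these 2 steps was called, and 24.4% and 26.0% of all genes did not overlap in the same comparisons.

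**Figure D4:**
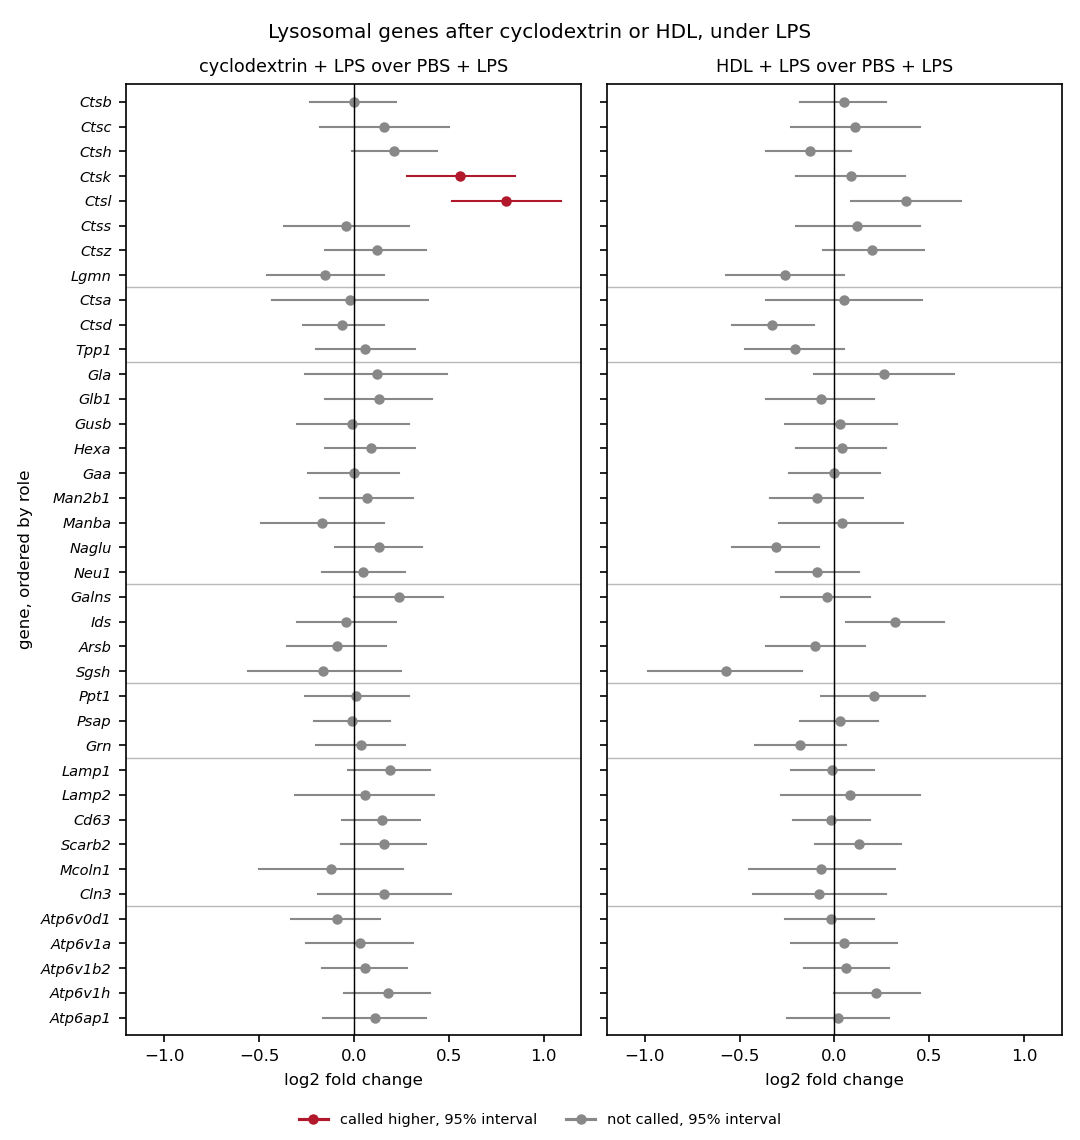
Log2 fold change of the 38 lysosomal genes with 95% intervals, for cyclodextrin over PBS (left panel) and HDL over PBS (right panel), all under LPS and with 3 arrays a group; the same PBS arrays serve both panels. Ctsl (0.80) and Ctsk (0.56) are called in the left panel, and no gene is called in the right one.

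Set directly against HDL, cyclodextrin gave 1 call among the 38 (2.63%), against 2.77% of all genes (1.24% called higher and 1.53% lower). With the median of all probes the split over all genes turned to 0.602% higher and 6.36% lower, and the 1 call among the 38 was Ids, lower (-0.50). Naglu read 9.95, 10.05 and 10.02 in cyclodextrin cells, against 9.64, 9.50 and 9.56 in HDL cells. The arrays did not overlap, and the difference was 0.44 ± 0.11 (limma adjusted p = 0.0464). The call was fragile: it was lost in 12 of 25 alternative settings, 10 of which left out 1 array (any but arrays 1 and 2, limma adjusted p up to 0.119), and under the median of all probes the difference was 0.29 (adjusted p = 0.225). Against the PBS arrays that both share, Naglu differed by 0.13 ± 0.11 in cyclodextrin cells and by -0.31 ± 0.11 in HDL cells, neither called.

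The 2 genes that cyclodextrin raised over PBS were not called against HDL. Ctsl differed by 0.42 ± 0.13 (limma adjusted p = 0.108, 95% interval 0.14 to 0.71) and Ctsk by 0.48 ± 0.13 (limma adjusted p = 0.0697, 0.19 to 0.76). Both intervals lie above 0 before adjustment, and the calls depended on the setting. Ctsk was called higher without background correction, with an offset of 50, with array weights, with a trended robust prior, in the authors' processed values and without HDL array 17 (0.45 to 0.59, limma adjusted p 0.0327 to 0.0419). Ctsl was called with array weights (0.53). Ctsh, at 0.35 and not called, was called under the median of detected probes (0.42). Arrays of cyclodextrin and HDL cells did not overlap for 16 of the 38 (42.1%), against 24.4% of all genes, and 9 genes (23.7%) had an unadjusted p under 0.05, against 18.4%. The 95% intervals of all 38 stayed within a 2-fold change. For Sgsh, detected on 2 of 3 cyclodextrin and 0 of 3 HDL arrays, the difference can only be given as at least 1.14-fold, and the interval sets no upper limit. Over the 3 comparisons among LPS-treated cells, 35 of the 38 genes had 0 calls and 3 had 1.

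In the lists of related genes, cyclodextrin raised 3 and lowered 2 of 101 against PBS (4.95% called), close to the 5.07% of all genes. Under the median of all probes 1 was higher and 5 were lower, against 1.03% of all genes higher and 5.01% lower. Atp6v1g2, a V-ATPase subunit gene, rose by 0.79 ± 0.15 (limma adjusted p = 0.00687) and kept its call in all 25 settings. Cst7 rose by 0.54 ± 0.11 (limma adjusted p = 0.0138), with the call lost under the median of all probes and without PBS array 8 or cyclodextrin array 22 (adjusted p up to 0.0771). Sort1 (-0.49), Tpcn1 (-0.55) and Map1lc3a (0.41) were called but lost it in 6, 10 and 14 of 25 settings.

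HDL raised 2 of the 101 and lowered 0 (1.98% called), close to the 1.90% of all genes. Serpinb1a, an intracellular inhibitor of neutrophil-type serine proteases and cathepsin G, rose by 1.01 ± 0.17 (limma adjusted p = 0.0136), and lost the call without PBS array 8, HDL array 16 or HDL array 18 (adjusted p up to 0.0679). Gabarap rose by 0.59 ± 0.13 (limma adjusted p = 0.0412), with the call lost in 10 of 25 settings. Cyclodextrin against HDL gave 1 higher and 1 lower call (1.98%, against 2.77% of all genes). Under the median of all probes it gave 0 higher and 5 lower, against 0.602% of all genes higher and 6.36% lower. Serpinb1a was at least 2.39-fold lower in cyclodextrin cells (limma adjusted p = 0.00139), where its probe was detected on 2 of 3 arrays, against 3 of 3 in HDL cells, and this call held in all 25 settings. For such a bound, each array of the dimmer group counts at its own signal or at the lowest detected signal on that array, whichever is higher, and the mean is set below that of the brighter group. Map1lc3a, which encodes an LC3 protein of the autophagosome membrane, differed by 0.53 ± 0.11 (limma adjusted p = 0.0208), with the call lost in 6 of 25 settings.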

How the data were processed

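Signals were exported by the authors from GenomeStudio, as the submitters' processing notes record without a version. The deposited table holds, per the file headers, a signal and a detection p-value for each of 45281 probes on 12 arrays. A second deposited table holds the authors' processed values, with no normalization stated in the sources used here. Most cells of both tables lack the decimal mark, so the signals were not usable as intensities until the decimal places were rebuilt; the planned test was then kept. Of 543372 deposited signals, 10998 (2.02%) kept their point, 409779 (75.4%) were placed from the detection p-value, 8531 (1.57%) from the number of digits, 112465 (20.7%) from each array's curve against the processed values and 1599 (0.294%) from other arrays. Of 12700 known values that were hidden and placed again by the last 2 ways, 0 came out wrong, but the rule had been adjusted while this test was looked at.

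Background correction and quantile normalization used neqc (offset 16, with background estimated from the detection p-values) in limma 3.58.1 under R 4.3.3, which gave log2 values. Symbols were read from the platform's annotation table, in which 34885 probes had 1 symbol, 18 several and 10378 none. The detection filter and 1 probe per gene left 9795 genes. A single limma model (lmFit, eBayes, two-sided) over all 12 arrays gave the 4 comparisons and was tested on simulated data. The genes and lists were chosen with earlier results of these data known. Values on every array were to be given for up to 10 called genes of each comparison, those with the smallest adjusted p, and Tfeb was to be described in any case; Cln3 under LPS and Ctsd, Sgsh and Ctsl after HDL were added after their values were seen. From the other lists, at most 4 called genes each were to be named, those with the largest change, and not all of these are named above. Alternatives were other scalings, background corrections, filters, probe rules and models, the authors' deposited processed values on the log2 scale, and leaving out each array. The median over all probes was added after the data were seen. Promoters are those of RefSeq GRCm38.p6. Figures used Python 3.11.15 and matplotlib 3.10.9.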

Additional observations from a re-analysis of the deposited data

How the results depend on the processing

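In the LPS comparison the number of lysosomal genes called was 24, 16 to 27 in the other settings and 22 to 24 with 1 array left out; 9 of the 24 calls held in all 25 settings and 14 were lost in a setting other than leaving out an array. Among LPS values called on quantile-normalized values or in the alternative, directions reversed for Ctsz (0.37), Lamp1 (0.02), Cd63 (0.04) and Atp6v1h (0.00) under the median of detected probes, for Galns (-0.32) under the median of all probes and for Ctsa (-0.38) with the mean of all probes (the cause was not tested). Values called in neither, such as Grn and Ctsb under the median of detected probes, also turned sign. For HDL against PBS the count was 0 in every setting run. For cyclodextrin against PBS it was 2, with 1 under the median of all probes and 1 to 2 with an array left out. For cyclodextrin against HDL it was 1, with 2 under the median of detected probes, 3 without background correction, 2 with an offset of 50, 0 with only the 2 groups compared, 4 with array weights, 3 with a trended robust prior, 2 in the authors' processed values and 0 to 1 with an array left out. Calls over all genes also moved. LPS against no LPS gave 5932, with 5569 to 6839 in the other settings and 5441 to 5972 with an array left out. HDL against PBS gave 186, with 80 from only the 2 groups, 102 without the detection filter, 282 without background correction, 575 with array weights and 36 to 223 with an array left out. Cyclodextrin against PBS gave 497, with 925 from array weights and 229 to 599 with an array left out. Cyclodextrin against HDL gave 271, with 75 from only the 2 groups, 424 with array weights, 682 under the median of all probes and 126 to 368 with an array left out. No paired analysis was possible because the replicate numbers in the labels differ in every group. Signal over background limits Sgsh, Tfeb and Atp6v0d2, and Psap lies near the top of the scale.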
